A study of Homo sapiens with 17 samples.

Results

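Interleukins are secreted proteins through which immune and epithelial cells signal to each other, and LIF and CSF1 are related secreted factors. The mRNA of 10 of these genes, IL32, IL23A, EBI3, IL17C, IL18, IL15, IL7, IL6, LIF and CSF1, was followed in SW480 cells. They were picked by gene symbol out of the 26457 genes of the table, with their values in these libraries already known, so the adjusted p-values given here describe these libraries and are not independent evidence about the list. SW480 cells come from a human colon cancer and express mutant p53, R273H (mutp53).

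The mRNA-seq experiment asked how loss of mutp53 alters the response to chronic TNF-α. One line carried a stable, doxycycline-inducible shRNA to LacZ (control, shLacZ) and the other carried an inducible shRNA to p53 (mutp53-depleted, shp53), and both were grown with puromycin and induced with doxycycline. Each was taken before TNF-α (untreated, 0 h) and after 16 h with 12.5 ng/ml TNF-α, with 2 biological replicates per group, called libraries A and B, giving 8 libraries in 4 groups. The sources used here do not say whether either line was a single clone, so mutp53 depletion and any other difference between the lines cannot be told apart.

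NF-κB, the transcription factor that TNF-α activates, turns on many cytokine genes, and the cytokines then act on neighbouring cells through cell-surface receptors. Several are only active as pairs. IL23A (the p19 chain) needs IL12B to form IL-23, and EBI3 pairs with IL27 to form IL-27 or with IL12A to form IL-35. IL6 and LIF signal through the shared chain IL6ST (gp130), IL15 and IL7 through the shared chain IL2RG, and CSF1 through CSF1R on macrophages.

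Values are normalized reads, the reads on the exons of a gene scaled by the authors to the same total in every library. In one library 1 read was worth between 0.67 and 1.52 normalized reads, and 6108488 to 13809578 reads per library fell on genes. All 10 genes of a list of known TNF-α targets were called higher after TNF-α in control cells, against 2.97% of all genes. In mutp53-depleted cells 9 of the 10 were called higher, against 1.86%. The remaining gene rose by 1.64 (log2) there without a call. It passed the filter on low values only through control cells at 16 h, so its call in control cells rests on the values that admitted it. The response of 7 of these 10 was lower in mutp53-depleted cells by the test of the difference itself, against 2.21% of all genes (median log2 difference -1.69 over the 10). Epithelial markers summed to 42730 to 70710 normalized reads per library, lowest in mutp53-depleted cells at 16 h. KRT8 and KRT18 had the largest values in this sum and were lowest in that group, with means of 15810 and 14360. KRT19 went the other way, with a mean of 7254 in untreated control cells and 10090 in that group. KRT20 did so at low values (0.755 and 5.995). Leukocyte markers summed to 46.96 to 114.9, highest in mutp53-depleted cells at 16 h (111.1 and 114.9), and 4 of the 8 passed the filter on low values. CD68 measured 18.9 and 21.2 in untreated control cells and 72.9 and 74.05 in that group. ITGAM lay at 0 in untreated control cells and at 25.9 and 27.7 in that group. CD14 went the other way, with 34.8 and 21.2 in untreated control cells and 7.55 and 4.94 in that group. PTPRC had 0 reads in all 8 libraries. Stromal and endothelial markers summed to 29.88 to 127.5, highest in mutp53-depleted cells at 0 h, where COL1A1 measured 88.5 and 106, and 2 of the 6 passed the filter, with DCN at 0 reads throughout. Their part in the results was not tested, and in bulk RNA fewer cells of a kind and less RNA per cell cannot be told apart.

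RefSeq promoter windows on GRCh38.p14 were matched for 4 of the 10 genes: IL32, IL23A, EBI3 and IL6. They are shown because no window was at hand for the other 6. Of the 4, IL32, IL23A and EBI3 rose with TNF-α, and IL6, a textbook NF-κB target, had no read. Each is the 250 bases before the start, on the + strand, with capitals marking matches to the NF-κB binding consensus (κB) or to TGANTCA, a match for AP-1 factors, on either strand. IL32 (first of 2 starts) lies at chr16:3065153-3065402, IL23A at chr12:56338634-56338883, EBI3 at chr19:4229273-4229522 and IL6 at chr7:22726950-22727199.
IL32: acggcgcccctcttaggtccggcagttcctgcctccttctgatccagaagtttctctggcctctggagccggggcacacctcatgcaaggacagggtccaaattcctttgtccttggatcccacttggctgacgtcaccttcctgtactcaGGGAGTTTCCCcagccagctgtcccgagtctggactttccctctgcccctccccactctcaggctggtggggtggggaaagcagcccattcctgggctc
IL23A: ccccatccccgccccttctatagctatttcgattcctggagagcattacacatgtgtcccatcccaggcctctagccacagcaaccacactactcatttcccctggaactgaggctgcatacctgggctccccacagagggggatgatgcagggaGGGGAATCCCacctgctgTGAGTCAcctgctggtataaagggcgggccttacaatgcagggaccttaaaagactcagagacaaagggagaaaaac
EBI3: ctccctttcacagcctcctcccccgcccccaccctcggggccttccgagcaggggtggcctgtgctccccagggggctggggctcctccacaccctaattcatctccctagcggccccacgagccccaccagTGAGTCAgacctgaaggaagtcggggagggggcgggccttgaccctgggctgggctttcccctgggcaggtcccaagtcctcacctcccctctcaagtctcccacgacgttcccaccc
IL6: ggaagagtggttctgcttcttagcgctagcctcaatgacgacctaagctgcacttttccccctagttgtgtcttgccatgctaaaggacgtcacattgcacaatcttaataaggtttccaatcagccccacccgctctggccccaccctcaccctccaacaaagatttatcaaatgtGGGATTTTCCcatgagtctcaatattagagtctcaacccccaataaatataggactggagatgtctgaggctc
A κB match began 99 bases before the start of IL32, with a second, overlapping match on the other strand at 98 bases. The IL23A window held a κB match at 95 bases, where the consensus is met on both strands, and TGAGTCA at 77 bases. TGAGTCA was the only match for EBI3, at 118 bases, and the IL6 window held a κB match at 73 bases. Neither motif was found in the window of the second IL32 start. Of 35116 RefSeq promoter windows of the same length, 5.21% held the κB consensus and 6.57% held TGANTCA. The matches are a description of the letters and not evidence of binding.

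**Figure D1:**
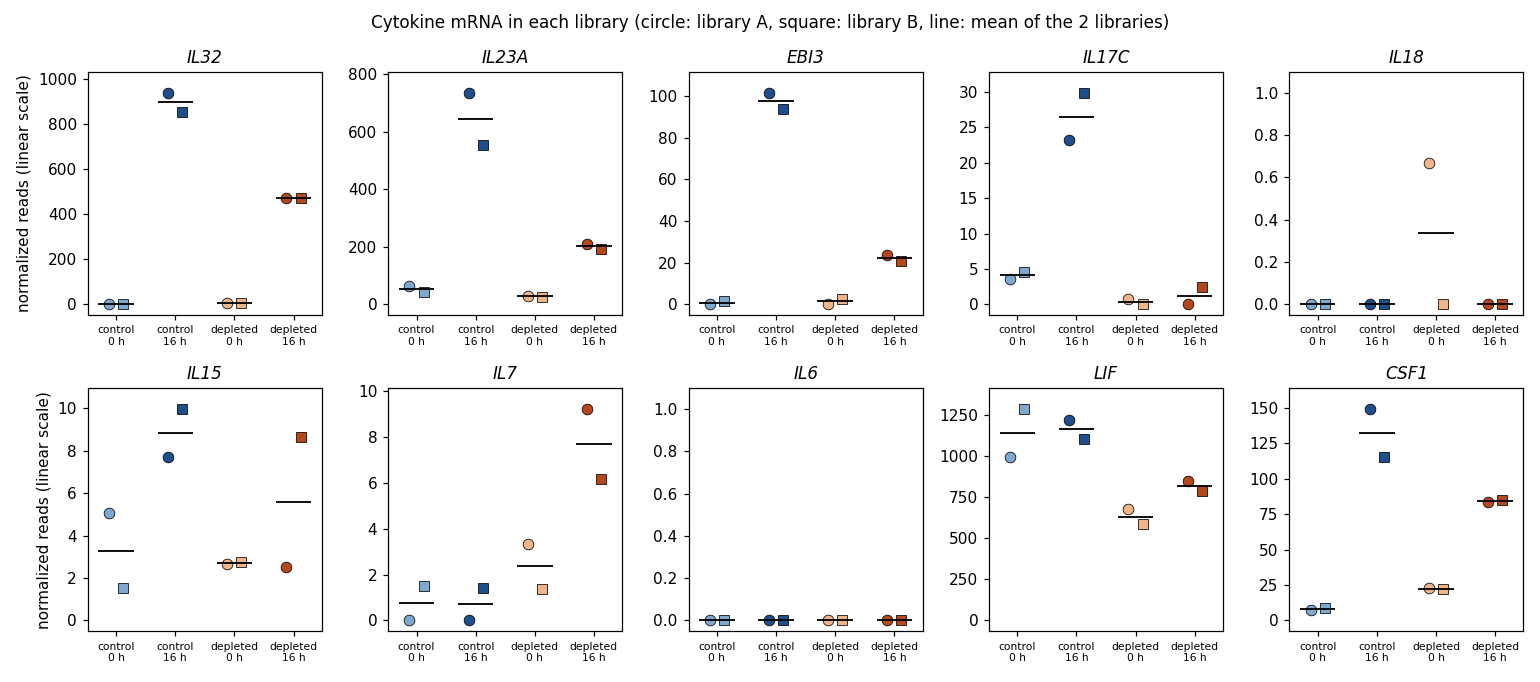
Normalized reads of each gene (y axis, linear, with its own scale per panel) in the 4 groups (x axis), with 1 point per library and a line at the mean of the 2 libraries. IL32, IL23A, EBI3, IL17C and CSF1 sit highest in control cells at 16 h, IL7 highest in mutp53-depleted cells at 16 h, and IL6 at 0 in all 8 libraries.

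The genes differed widely in level. The level per kb of exon, which allows genes to be compared, was highest for LIF in control cells at 0 h, at 288.5 normalized reads per kb, followed by IL23A at 52.4 and IL17C at 3.93. After TNF-α, IL32 measured 725 and IL23A 622 per kb in control cells, with library ranges that overlapped, and both stood above LIF at 294 and EBI3 at 86.5. CSF1 at 31.3 and IL17C at 25.5 per kb overlapped in range, and IL15 lay at 3.58. In mutp53-depleted cells at 16 h the order was IL32 at 382, then LIF at 207 and IL23A at 194, whose ranges overlapped, then CSF1 at 20.01 and EBI3 at 19.7, which also overlapped. In mutp53-depleted cells at 0 h LIF at 160 and IL23A at 26.8 per kb again led.

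Changes were tested with limma on the 14800 genes whose mean reached 2.5 normalized reads, as log2(normalized reads + 1), and calls needed an adjusted p (Benjamini-Hochberg, over all of them) under 0.05 together with a change of 2-fold or more. The added 1 brings the change of weakly expressed genes closer to 0. Of the 10 cytokines 8 passed the filter, and IL18 and IL6 did not. IL17C and IL7 passed only through the group where each was highest (control and mutp53-depleted cells at 16 h), without which their means were 1.89 and 1.28, so their calls involving that group rest on the values that admitted them. The TNF-α and depletion comparisons share libraries, so their values are set side by side and not correlated.

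TNF-α raised 5 of the 8 tested cytokines in control cells (IL32, IL23A, EBI3, IL17C and CSF1), and in mutp53-depleted cells it raised 4 (IL32, IL23A, EBI3 and CSF1). The call of IL17C among the 5 rests on the values that admitted it. IL7 in control cells had the only value below 0 (-0.03, unadjusted p 0.97). Of all genes tested, 7.24% were called in control cells (2.97% higher, 4.27% lower) and 6.36% in mutp53-depleted cells (1.86% higher, 4.5% lower). The median log2 change of the 8 was 3.0 and 1.64, against -0.05 and -0.06 for all genes.

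**Figure D2:**
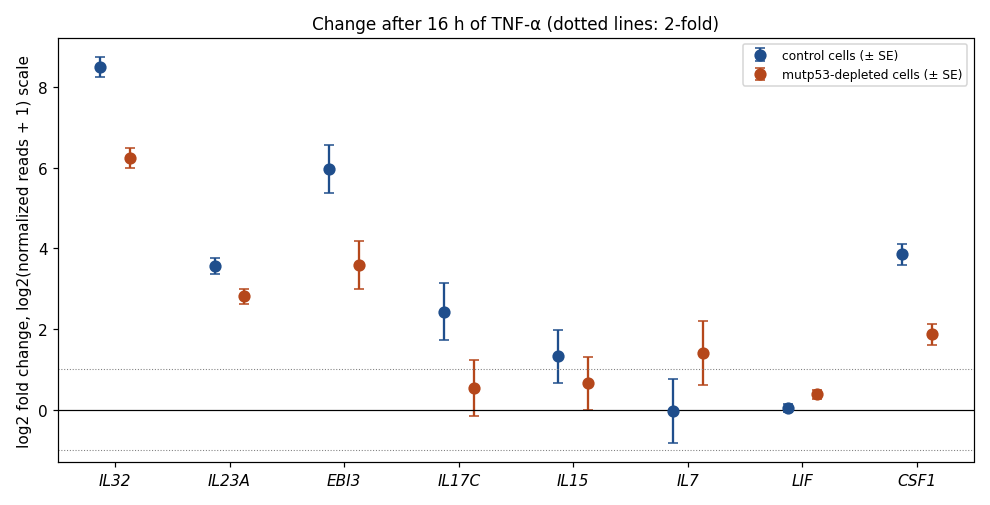
Log2 fold change after 16 h of TNF-α (y axis, log2(normalized reads + 1) scale, ± SE) for the 8 tested cytokines (x axis) in the control and the mutp53-depleted line. The control value lies above the depleted value for IL32, IL23A, EBI3, IL17C, IL15 and CSF1 and below it for IL7 and LIF, with the difference itself called for IL32 and CSF1.

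IL32, a cytokine without a close relative that induces other inflammatory cytokines, gave the largest TNF-α response of the 8 tested. It measured 1.45 and 1.51 normalized reads in untreated control cells and 937 and 854 at 16 h. In mutp53-depleted cells it went from 6.70 and 4.11 to 473 and 471. The groups at 16 h did not overlap with each other or with those at 0 h. TNF-α raised it by 8.50 ± 0.24 (log2, SE) in control cells and by 6.24 ± 0.24 in mutp53-depleted cells, with limma adjusted p of 2.6e-14 and 3.9e-12. The control group at 0 h holds only 3 reads, so the ratio of reads there, 614, has a 95% counting interval of 210 to 2980. The ratio in mutp53-depleted cells was 80.7 (47.0 to 152). The response in mutp53-depleted cells less that in control cells was -2.26 ± 0.34, with a limma adjusted p of 0.00074. Its value combines a higher level at 0 h with a lower one at 16 h. Depletion raised IL32 at 0 h by 1.34 ± 0.24 (limma adjusted p 0.00015), on 3 against 13 reads with a ratio of 3.98 (1.09 to 21.7). At 16 h IL32 differed by -0.92 ± 0.24 (limma adjusted p 0.004), which is under 2-fold and was not called. The call at 0 h was lost with a pseudocount of 5 (0.67), the edgeR exact test (adjusted p 0.097) and DESeq2 (adjusted p 0.076), and the difference in response was lost with DESeq2 (adjusted p 0.079). The RefSeq transcript in the table lies on chromosome 16 (hg19, 3115643 to 3119820).

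IL23A and EBI3 encode chains of the heterodimeric cytokines of the IL-12 family. IL23A was already present at 0 h, at 64.6 and 43.9 normalized reads in control and 29.5 and 26.1 in mutp53-depleted cells. At 16 h it reached 735 and 555 in control and 210.4 and 191 in mutp53-depleted cells. Every library of control cells lay above every library of mutp53-depleted cells at the same time. TNF-α raised it by 3.56 ± 0.19 in control cells and by 2.81 ± 0.19 in mutp53-depleted cells (limma adjusted p 1.1e-10 and 4e-09). The difference between these responses, -0.75 ± 0.27, was not called (limma adjusted p 0.19). At 16 h IL23A fell by 1.67 ± 0.19 with depletion (limma adjusted p 8.8e-07), with a ratio of reads of 0.306 (0.273 to 0.343). At 0 h the difference was -0.92 ± 0.19 (limma adjusted p 0.00056) and fell short of 2-fold. It reached 2-fold in 6 of 18 alternatives, at -1.02 to -1.05 with edgeR and DESeq2, -1.22 with the neighbouring genes' median removed, and -1.19 and -1.0 without library B of control cells or library A of mutp53-depleted cells. Its 50 neighbouring tested genes on chromosome 12 had median log2 differences of 0.30 and 0.25 at 0 h and 16 h, opposite in sign to IL23A. The gene spans 56732663 to 56734194 (hg19).

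EBI3 was close to silent without TNF-α. It measured 0 and 1.51 normalized reads in untreated control cells and 0 and 2.74 in mutp53-depleted cells, and at 16 h 102 and 93.9 against 23.5 and 21.0. The 16 h groups were apart from each other and from both 0 h groups. TNF-α raised it by 5.96 ± 0.60 in control and by 3.58 ± 0.60 in mutp53-depleted cells (limma adjusted p 4.4e-07 and 0.00018). The ratios of reads were 201 (35.5 to 7970) on 1 against 171 reads and 25 (6.52 to 212) on 2 against 45 reads. At 16 h EBI3 fell by 2.09 ± 0.60 with depletion (limma adjusted p 0.0069), a ratio of 0.228 (0.161 to 0.319). The call was lost with a pseudocount of 0.1 (-2.13, adjusted p 0.22) and without library A of control cells at 16 h (-2.03, adjusted p 0.058). The difference between the responses, -2.38 ± 0.84, was not called (limma adjusted p 0.17), although it was with a pseudocount of 5 (-2.04, adjusted p 0.0071) and without library A of mutp53-depleted cells at 0 h (-3.33, adjusted p 0.031). EBI3 lies on chromosome 19 (hg19, 4229540 to 4237524).

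Of the partners of these chains, IL12B, needed for IL-23, had at most 2 reads in any group. IL27, needed for IL-27, had 0 reads in all 8 libraries. IL12A, which pairs with EBI3 in IL-35, was read at 2.90 and 3.03 normalized reads in untreated control cells and at 14.5 and 7.11 at 16 h, a rise of 1.50 ± 0.50 (limma adjusted p 0.032). In mutp53-depleted cells its values were 8.04 and 5.48 at 0 h and 21.8 and 14.8 at 16 h, a difference of 1.31 that was not called (limma adjusted p 0.06). IL12A was measured at its highest in mutp53-depleted cells at 16 h, but no depletion difference was called for it.

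IL17C (chromosome 16, hg19, 88705001 to 88706882), an IL-17 family cytokine of epithelial cells, measured 3.63 and 4.54 normalized reads in untreated control cells and 23.2 and 29.9 at 16 h. In mutp53-depleted cells it measured 0.67 and 0, then 0 and 2.47. The 8 and 45 reads of control cells compare with 1 and 2 reads of mutp53-depleted cells. TNF-α raised IL17C by 2.43 ± 0.70 in control cells (limma adjusted p 0.014), and the change of 0.53 in mutp53-depleted cells was not called (limma adjusted p 0.63). With depletion it fell by 3.88 ± 0.70 at 16 h (limma adjusted p 0.00014), with a ratio of 0.0385 (0.00453 to 0.148), and fell by 1.97 ± 0.70 at 0 h (limma adjusted p 0.024). The 16 h call held in all 17 alternatives that tested the gene. All of them reuse values of control cells at 16 h, through which alone IL17C passed the filter. The alternative with a mean of at least 10 left the gene out. The TNF-α call was lost with a pseudocount of 0.1 (adjusted p 0.24) and without any 1 of the 4 control libraries (2.26 to 2.61, adjusted p 0.055 to 0.11). The 0 h call was lost in 6 alternatives, namely a pseudocount of 5 (-0.77), the edgeR exact test, DESeq2, and without control library A (-2.10), control library B (-1.84) or mutp53-depleted library B (-1.60). Whether the responses differed was not resolved, at -1.90 ± 0.99 (limma adjusted p 0.43). IL17RE, the receptor chain that IL17C binds, fell by 1.26 and 1.35 on the log2 scale with depletion at 0 h and 16 h. IL17RA, the other chain, lay between 179.6 and 333 normalized reads in every library. It differed with depletion by -0.64 ± 0.14 at 0 h and -0.36 ± 0.14 at 16 h (limma adjusted p 0.00061 and 0.034), both under 2-fold and not called.

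CSF1, the growth factor of macrophages, was ordered over the groups as IL32 was. It measured 7.26 and 9.09 normalized reads in untreated control cells and 149 and 115 at 16 h. In mutp53-depleted cells it measured 22.8 and 21.9, then 83.8 and 85.2. Control libraries were lower at 0 h and higher at 16 h than the mutp53-depleted ones, with no overlap. TNF-α raised CSF1 by 3.85 ± 0.26 in control and by 1.87 ± 0.26 in mutp53-depleted cells (limma adjusted p 2.1e-09 and 2.6e-05), and the responses differed by -1.98 ± 0.37 (limma adjusted p 0.0043). Depletion raised it at 0 h by 1.36 ± 0.26 (limma adjusted p 0.00025). At 16 h the difference of -0.63 ± 0.26 was not called (limma adjusted p 0.051). Each of these calls held in every alternative that gave it. CSF1R had at most 1.93 normalized reads in any library. CSF1 lies on chromosome 1 (hg19, 110453233 to 110473616).

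**Figure D3:**
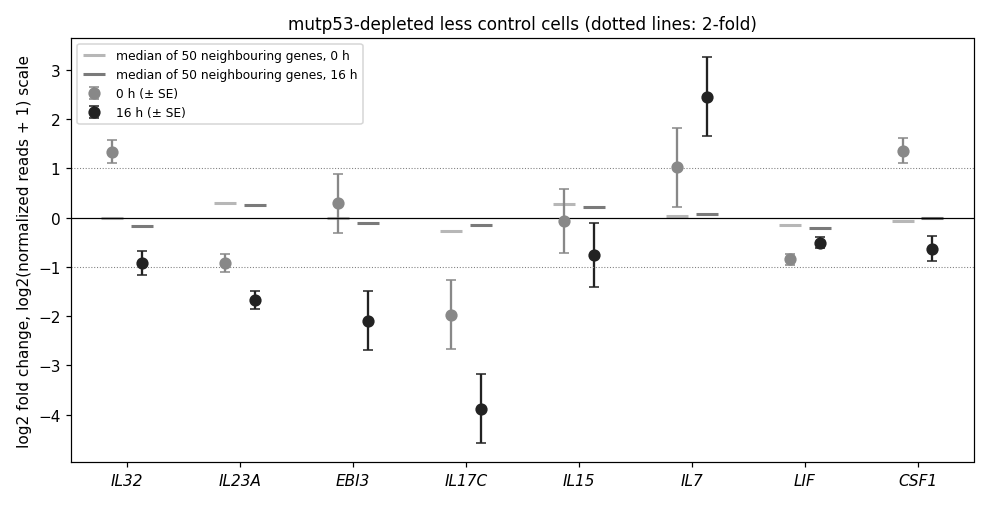
Log2 difference of mutp53-depleted less control cells (y axis, log2(normalized reads + 1) scale, ± SE) for the 8 tested cytokines (x axis) at 0 h and at 16 h, with the median of the 50 neighbouring tested genes as short bars. IL32, CSF1 and EBI3 lie above 0 at 0 h and below 0 at 16 h, while IL23A, IL17C, LIF and IL15 lie below 0 at both times and IL7 above 0 at both.

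LIF (chromosome 22, hg19, 30636436 to 30642840), an IL6-family factor, was abundant in every group. It measured 999 and 1288 normalized reads in untreated control cells and 1224 and 1108 at 16 h, and the TNF-α change was not called (0.04 ± 0.11, limma adjusted p 0.84). In mutp53-depleted cells it measured 680 and 585 at 0 h and 853 and 789 at 16 h. Every mutp53-depleted library lay below every control library. The differences were -0.85 ± 0.11 at 0 h and -0.51 ± 0.11 at 16 h (limma adjusted p 2.3e-06 and 0.00056), or ratios of reads of 0.594 (0.555 to 0.635) and 0.702 (0.658 to 0.75), and neither reached 2-fold. Without library A of control cells the 0 h difference was -1.03 and did. The TNF-α value in mutp53-depleted cells was 0.38 ± 0.11 (limma adjusted p 0.012), also under 2-fold. The difference between the responses was not called (0.34 ± 0.15, limma adjusted p 0.31). LIFR, the specific LIF receptor chain, had 0 reads in all 8 libraries, whereas IL6ST lay between 1240 and 2290 normalized reads.

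IL6, the cytokine that names the gp130 family, had 0 reads in all 8 libraries, TNF-α included. A count of 0 allows up to 3 reads, which is 2.01 to 4.54 normalized reads per library. No rise above that limit was seen with TNF-α or depletion, and a change below it was not detectable. The gene overlaps the antisense gene LOC541472 in the table, and its neighbouring genes had a median depletion difference of -0.81 at both times. IL18, an epithelial cytokine that is released after cleavage, had 1 read in total, in mutp53-depleted cells at 0 h. For IL18 too, a change below that limit was not detectable.

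IL7 and IL15, growth factors of lymphocytes, were read at low levels. In the control line IL7 measured 0 and 1.51 normalized reads before TNF-α and 0 and 1.42 after it. In the mutp53-depleted line it measured 3.35 and 1.37, then 9.22 and 6.17, so only the treated mutp53-depleted libraries stood above all the others. It was the only one of the 8 called higher with depletion at 16 h, by 2.46 ± 0.80 (limma adjusted p 0.015), on 1 against 16 reads with a ratio of 13.9 (2.16 to 582). The call was lost with a pseudocount of 0.1 (adjusted p 0.058), with DESeq2 (adjusted p 0.095) and without library A of control cells at 16 h (1.82, adjusted p 0.11). Its TNF-α change in mutp53-depleted cells, 1.41 ± 0.80, was not called (limma adjusted p 0.21). IL15 measured 5.08 and 1.51 normalized reads in untreated control cells and 7.73 and 9.96 at 16 h, against 2.68 and 2.74, then 2.52 and 8.64 in mutp53-depleted cells. The groups overlapped in mutp53-depleted cells and none of its comparisons was called, with TNF-α in control cells at 1.32 ± 0.65 (limma adjusted p 0.15).

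Depletion called 3 of the 8 cytokines at 0 h (IL32 and CSF1 higher, IL17C lower) and 4 at 16 h (IL7 higher, IL23A, EBI3 and IL17C lower). IL17C and IL7 passed the filter only through control and mutp53-depleted cells at 16 h, respectively. Their calls at 16 h, and their part in the median at 16 h, therefore rest on the values that admitted them. The count at 0 h was 1 with a pseudocount of 5, and that at 16 h was 2 with a pseudocount of 0.1, with a mean of at least 10 and without library A of control cells at 16 h. Among all genes tested 15.4% were called at 0 h (5.89% higher, 9.55% lower) and 15.2% at 16 h (5.03% higher, 10.2% lower). The median log2 difference of the 8 was 0.11 at 0 h and -0.83 at 16 h, against 0.03 and -0.01 for all genes. The interaction, the difference between the TNF-α responses of the lines, was called at the adjusted p alone for 2 of the 8, both lower in mutp53-depleted cells, against 2.86% of all genes (2.21% lower).

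**Figure D4:**
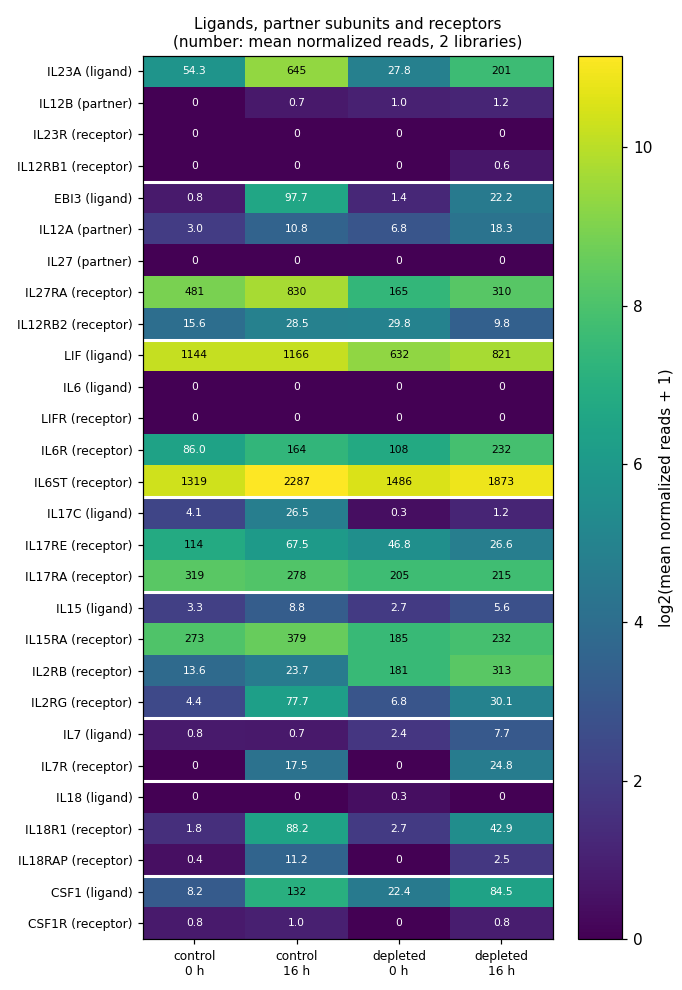
Mean normalized reads over the 2 libraries (numbers) and their log2(mean + 1) (colour) for ligands, partner chains and receptors (y axis) in the 4 groups (x axis). IL23R, LIFR, IL27 and IL6 are at 0 in every group, IL27RA is lower and IL2RB higher in mutp53-depleted cells, and IL7R is at 0 before TNF-α.

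A list of 21 genes held the receptor chains of these and closely related cytokines and the inhibitor IL18BP, and 15 of them were tested. TNF-α raised 4 in control cells (IL18R1, IL18RAP, IL2RG and IL7R), where 2.97% of all genes were called higher. IL18RAP passed the filter only through that group at 16 h. In mutp53-depleted cells it raised 4 (IL18R1, IL2RG, IL6R and IL7R) and lowered IL12RB2, against 1.86% and 4.5% of all genes. IL7R, the specific chain for IL7, had 0 reads at 0 h and 31 reads in control and 52 reads in mutp53-depleted cells at 16 h. IL18R1 rose by 4.97 ± 0.42 in control and by 3.50 ± 0.42 in mutp53-depleted cells (limma adjusted p 4.2e-08 and 4.9e-06), while IL18 itself had 1 read in total.

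Depletion raised 1 receptor gene at 0 h (IL2RB) and lowered 3 (IL11RA, IL17RE and IL27RA), against 5.89% and 9.55% of all genes. At 16 h it raised 2 (IL2RB and IL18BP, the latter a secreted inhibitor of IL18) and lowered 7 (IL11RA, IL12RB2, IL17RE, IL18R1, IL18RAP, IL27RA and IL2RG), against 5.03% and 10.2%. IL18RAP passed the filter only through control cells at 16 h, so its call among the 7 rests on the values that admitted it. IL2RB, a chain of the IL15 receptor, measured 7.57 to 19.6 normalized reads in untreated control cells and 163 to 198 in mutp53-depleted cells, and the differences were 3.77 ± 0.30 at 0 h and 3.65 ± 0.30 at 16 h (limma adjusted p 8.5e-09 and 1.1e-08). IL27RA, the receptor for the EBI3 and IL27 pair, fell by 1.54 and 1.41 on the log2 scale. The interaction was called for 2 of the 15, IL12RB2 and IL6ST, both lower, against 2.86% of all genes (2.21% lower).

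Of 45 other cytokine genes 15 were tested and 16 had 0 reads in all libraries. TNF-α raised CSF2, IL12A, IL24 and IL34 and lowered IL16 in control cells, and it raised CSF2, IL24 and IL34 and lowered IL16 in mutp53-depleted cells. Over all genes 2.97% were called higher and 4.27% lower in the first comparison, and 1.86% and 4.5% in the second. CSF2, the granulocyte-macrophage growth factor, measured 2.90 and 6.06 normalized reads in untreated control cells and 265 to 426 at 16 h, and rose by 6.0 ± 0.28 (limma adjusted p 2e-11). Depletion raised CSF2 and lowered IL11, IL16 and IL17D at 0 h, and lowered the last 3 at 16 h, against 5.89% higher and 9.55% lower over all genes at 0 h and 10.2% lower at 16 h. IL11 differed by -1.5 and -1.3 at 0 h and 16 h, and its 50 neighbouring tested genes had medians of -0.67 and -0.63. The neighbour medians were -0.12 and -0.21 for IL16 and 0.17 at both times for IL17D. The interaction was called for 0 of the 15 with limma, edgeR's quasi-likelihood test or DESeq2, and 2 had an unadjusted limma p under 0.05. Limma called 2.86% of all genes in it.

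Across the 8 libraries the log2 values most like those of IL32 belonged to NFKBIE, an inhibitor of NF-κB, and PDLIM4 (r = 0.997 for both). CSF1 was most like SGPP2 (r = 0.997) and ANXA7 (0.993), IL23A like UBAP2 and GOLGA7B (0.995 each) and EBI3 like PMAIP1 (0.986) and CXCR2 (0.982). IL17C was closest to TEP1 (0.989) and PRKRIP1 (0.985), LIF to NDOR1 (0.988) and SON (0.981), IL7 to AHCTF1 (0.973) and HNRNPA1L2 (0.971), and IL15 to IL19 (0.943) and YWHAZ (0.934). With only 4 groups behind 8 libraries such values are common: 360 genes reached 0.9 with IL32 and 10 with IL15.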

How the data were processed

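Strand-specific poly(A) libraries of SW480 cells were sequenced from 4 groups with 2 libraries each. Other assays of the series (13 samples) were not analysed here. Per the labels and the methods, the authors aligned the reads with STAR and counted them on RefSeq exons with HOMER. The deposited values are a normalized read signal per gene, and the header names hg19, whereas the labels name hg38. The values are whole reads times 1 factor per library for 100% of them (within 0.1 read). The deposited fold changes and p-values of 4 comparisons were not used.

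Values were tested as log2(value + 1) with limma 3.58.1 in R 4.3.3 (4 group means, trend), for genes with a mean of at least 2.5, with Benjamini-Hochberg adjustment over the 14800 genes. The counts test was run on recovered reads as an alternative (edgeR 4.0.16, quasi-likelihood and exact, and DESeq2 1.42.0). Further alternatives were pseudocounts of 0.1 and 5, no filter, a mean of at least 10, rescaling by the median ratio, the replicate letter, removal of the median of 25 tested genes on each side, and leaving out each of the 8 libraries. Ratios of reads have exact 95% conditional binomial intervals, which cover counting error only. The fit was tested on simulated data, with the same spread for every gene and changes only in genes with more reads than IL17C, IL15 and IL7. That test therefore does not bear on the calls of these weakly expressed genes. The cytokines, the lists of receptors, partners, TNF-α targets and markers, and the alternatives were chosen with earlier results of these data known. The text names all 10 cytokines, partner chains, receptor and other cytokine genes called in a comparison and the 2 genes most correlated with each cytokine. TNF-α targets are given as counts. IL17RA, CSF1R, LIFR, IL23R, KRT8, KRT18, KRT19, KRT20, PTPRC, CD68, ITGAM, CD14, COL1A1 and DCN were named after their values were seen. Promoter windows are from RefSeq (GRCh38.p14), whose coordinates are not mixed with those of hg19. Tables were made with Python 3.11.15, pandas 2.3.3, scipy 1.17.1 and matplotlib 3.10.9. The gene used as a check of the labels is not reported here.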

Additional observations from a re-analysis of the deposited data

Results flagged for a closer look

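The TNF-α response differed between mutp53-depleted and control cells, by the limma test of the difference itself, for IL32 (log2 difference -2.26, adjusted p 0.00074) and CSF1 (-1.98, adjusted p 0.0043). Among receptor genes it differed for IL12RB2 (-2.33, adjusted p 0.011) and IL6ST (-0.46, adjusted p 0.021). Over all genes tested 2.86% were called by this test (2.21% lower). Groups of 2 libraries were not searched for single outlying libraries.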

How the results depend on the processing

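Over the 18 alternatives, 640 of 681 values of the 8 cytokines kept their direction and side of the threshold, 20 lost the call, 9 gained it and 12 changed sign. The number called with depletion at 0 h, 3, was 1 with a pseudocount of 5. At 16 h it went from 4 to 2 with a pseudocount of 0.1 and with a mean of at least 10, which leaves out IL17C, IL15 and IL7, and to 2 without control library A at 16 h. The interaction went from 2 to 1 with DESeq2. The edgeR exact test gives no interaction.

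Without 1 library, the cytokines called numbered 4 to 5 and 4 to 4 with TNF-α in control and mutp53-depleted cells, 2 to 4 with depletion at 0 h, 2 to 4 at 16 h and 2 to 3 in the interaction. Calls over all genes numbered 847 to 1103, 758 to 970, 1876 to 2312, 2002 to 2297 and 229 to 411 (424 for the interaction over all libraries). The interaction was lowest, 281, 233, 229 and 265, without control library A at 0 h, mutp53-depleted library A or B at 0 h and mutp53-depleted library B at 16 h.

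Signs changed only where no call was made. Without 1 library, EBI3 depletion at 0 h ranged from -0.66 to 1.24 (-0.38 without control A at 0 h), TNF-α in mutp53-depleted cells from -0.37 to 1.43 for IL17C and -0.08 to 1.38 for IL15, IL15 depletion at 0 h from -0.71 to 0.56, the IL15 interaction from -1.40 to 0.05, and TNF-α in control cells from -0.69 to 0.64 for IL7 (0.61 without control A at 16 h) and from -0.14 to 0.22 for LIF (-0.03 without control A at 16 h). For IL7 the latter was 0.22 and 0.21 with the edgeR tests. The cause was not tested.

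The A minus B deviations correlated at -0.02 to 0.07 between groups, which cannot settle whether the letters mark paired libraries. Library A held more reads than library B in every group. The replicate block changed no call of a cytokine and gave 559 interaction calls over all genes, against 424 without it. Low counts limit IL7, IL15, IL17C, EBI3 at 0 h and IL32 at 0 h.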
